A study of Mus musculus with 35 samples.

Results

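IRF4 binding was compared between wild-type (WT) and IKDN pre-B cells through the peak lists of 2 chromatin immunoprecipitation (ChIP-seq) libraries, 1 for each genotype. The members are all IRF4 peaks on chromosomes 1 to 19 and X, 17942 in the WT list and 29546 in the IKDN list, together 47488 of the 1211551 peaks in the 33 lists of the series. Both libraries came from stromal adherent mouse pre-B cell progenitors at passages 3 to 8. The WT cells came from WT mice, and the IKDN cells from mice of the genotype IKDN CD2 Cre, in which Cre recombinase is under a CD2 promoter. IKDN is known as a dominant-negative form of Ikaros, the lymphoid zinc finger factor. The sources used here do not say how many mice or cultures stand behind a library. With 1 library for each genotype there are no replicates, so every difference below is a difference between 2 lists, with no test. Intervals are exact 95% Clopper-Pearson intervals and cover counting error only.

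IRF4 is an interferon regulatory factor of lymphoid cells. On its own it binds DNA weakly, and it is known to bind composite elements together with the ETS factors PU.1 and SpiB, in which a GGAA core is followed by a GAAA core, or tandem GAAA repeats together with other partners. In pre-B cells IRF4 acts downstream of the pre-B cell receptor, promotes recombination of the immunoglobulin light chains through their enhancers, and is known to raise the chemokine receptor CXCR4 and to oppose growth on IL-7.

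The IRF4 lists were first set against the letters that IRF4 is known to bind, in RefSeq promoters of build GRCm38.p6 that run from 250 bp before to 50 bp after a gene's start. The composite element, GGAA and GAAA with any 2 bases between them, searched on both strands, occurred in 2.74% of all 32585 promoters and the tandem element, GAAA and GAAA with any 2 bases between them, in 3.45%. Among the 200 promoters with the highest-scoring WT IRF4 peaks, 16.5% (11.6 to 22.4%) held the composite and 9% (5.42 to 13.9%) the tandem element. In the IKDN list these shares were 15.5% (10.8 to 21.3%) and 9% (5.42 to 13.9%). Among the other promoters with a top-ranked IRF4 peak the composite share was 3.01% in either list. In the 15 other transcription factor lists, the 200 highest promoters held the composite at 1% to 5%, with the highest value in the WT E2A list. The labels give the antibody of both IRF4 libraries the same catalogue number as that of the IKDN E2A library and of both PAX5 libraries. The composite share was 3% in the IKDN E2A list, 2.5% in the WT PAX5 list and 1% in the IKDN PAX5 list. Of the 5000 top-ranked WT IRF4 peaks, 57.8% overlapped the 5000 top-ranked IKDN IRF4 peaks, against 24.9% for Ikaros in WT cells, 15.1% for E2A in IKDN cells and 9.54% for PAX5 in WT cells.

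Stretches of promoter DNA under IRF4 peaks show the 2 elements. They are given 5′ to 3′ in the direction of the gene, in lower case with the element in capitals, up to 30 bases on each side. An element on the other strand reads TTTC, 2 bases and TTCC for the composite, and TTTC, 2 bases and TTTC for the tandem form. The first set lies under peaks shared by both genotypes, at the 3 highest WT scores with an element inside the peak and different letters, predicted genes left out here and below (Zfp942 at chr17:21962517-21962586, Zcwpw2 at chr9:118040877-118040946 and Phf14 at chr6:11925847-11925916). Irgm2 (chr11:58214877-58214946) and Gbp7 (chr3:142530253-142530322), interferon-induced GTPases, were added after their values were seen.
Zfp942: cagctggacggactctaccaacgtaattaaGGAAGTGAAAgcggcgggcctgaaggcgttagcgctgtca
Zcwpw2: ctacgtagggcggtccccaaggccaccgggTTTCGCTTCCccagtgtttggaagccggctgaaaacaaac
Phf14: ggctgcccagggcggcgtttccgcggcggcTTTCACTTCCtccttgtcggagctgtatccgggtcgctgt
Irgm2: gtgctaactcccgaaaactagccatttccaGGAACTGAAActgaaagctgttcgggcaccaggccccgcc
Gbp7: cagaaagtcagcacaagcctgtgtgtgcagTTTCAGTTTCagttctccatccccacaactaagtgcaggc

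At Zfp942, which codes for a zinc finger protein, the WT score was 164.4 and the IKDN score 202.7, and the element lay 5.5 bp from the centre of the WT peak. The same 70 letters stand on the opposite strand at the promoter of Zfp758, whose scores were 163.7 and 211.9, so reads from the 2 promoters may not be told apart. Irgm2 had scores of 64 in WT and 69.5 in IKDN cells, and Gbp7 of 58.9 and 47.7. All 5 promoters carried H3K27ac, the acetylation mark of active promoters and enhancers, in both genotypes. Of the 40 composite matches with the highest shared peaks, 31 lay inside the peak, and their median distance from its centre over all 40 was 18 bp.

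The next set comes from promoters with a peak in the WT list only. Of 189 such promoters 2 held the composite (1.06%, 0.128 to 3.77%) and 5 the tandem element (2.65%, 0.864 to 6.07%). Their 3 highest-scoring examples are all tandem elements, at Arl6ip1 (chr7:118129703-118129772), Elk4 (chr1:132008261-132008330) and Wipf1 (chr2:73453953-73454022).
Arl6ip1: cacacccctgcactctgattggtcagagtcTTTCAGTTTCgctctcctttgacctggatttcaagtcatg
Elk4: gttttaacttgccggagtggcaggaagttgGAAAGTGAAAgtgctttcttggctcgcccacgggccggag
Wipf1: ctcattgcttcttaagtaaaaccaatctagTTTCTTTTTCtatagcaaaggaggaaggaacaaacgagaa

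Arl6ip1, a protein of the endoplasmic reticulum, had a score of 13.8, Elk4, an ETS factor, 11.6, and Wipf1, a partner of the Wiskott-Aldrich syndrome protein in actin assembly, 10.2. The last set comes from the IKDN list only, where 25 of 798 promoters held the composite (3.13%, 2.04 to 4.59%) and 25 the tandem element (3.13%, against 3.45% of all promoters). It shows Phf11d (chr14:59365456-59365525), Slc22a15 (chr3:101924439-101924508) and Tcirg1 (chr19:3905390-3905459), with Ifitm3 (chr7:141010695-141010755), an interferon-induced membrane protein, added after its value was seen.
Phf11d: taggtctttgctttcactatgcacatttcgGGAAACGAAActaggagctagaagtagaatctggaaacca
Slc22a15: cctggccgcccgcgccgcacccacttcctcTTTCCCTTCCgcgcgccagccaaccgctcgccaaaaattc
Tcirg1: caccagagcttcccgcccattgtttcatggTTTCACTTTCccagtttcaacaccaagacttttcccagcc
Ifitm3: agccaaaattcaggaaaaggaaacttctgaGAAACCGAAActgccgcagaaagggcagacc

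Phf11d and Slc22a15, a solute carrier, each had a score of 25.8 in the IKDN list, Tcirg1, a subunit of the vacuolar proton pump, 16.1, and Ifitm3 14.9. The Phf11d promoter carried H3K27ac in IKDN cells and not in WT cells. The 3 others carried it in both. Scores at these genotype-only promoters were far below those of the shared set. The share with a composite element in the shared promoters with a top-ranked peak was 3.7% (2.95 to 4.57%, n = 2191), so the intervals of the 3 classes overlapped. Of 27 composite matches at IKDN-only promoters 17 lay inside the peak, and the median distance from its centre over all 27 was 101.5 bp. Of 27 tandem matches there 11 lay inside, with a median of 140.5 bp. At shared promoters 50 of 73 composite and 46 of 74 tandem matches lay inside, with medians of 34.5 and 51.5 bp. A match is a description of the letters and not a measured binding site.

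Marker promoters were read from H3K27ac as a check of the cultures. Of 8 pre-B markers in the promoter table, all had an H3K27ac peak within 1000 bp in WT cells and 6 in IKDN cells, where Rag1 and Rag2, the recombinase genes, had none. Of 4 stromal fibroblast markers, 3 had a peak in WT cells, at scores up to 59.5 at Prrx1, and none in IKDN cells. The T cell markers Cd3e, Cd3g and Cd8a and the myeloid markers Itgam, Csf3r and Mpo had none in either genotype. The T cell markers Lck, with scores of 398 in WT and 63.3 in IKDN cells, and Tcf7, with 11.1 and 26.6, and the myeloid marker Lyz2, with 29.3 and 18, had one in both. Cebpa, a myeloid factor, had none in WT cells and a score of 183.4 in IKDN cells. Summed scores over the pre-B markers were 17198.6 in WT and 7715.6 in IKDN cells, where the same peak counts for both Vpreb1 and Igll1. Over the T cell markers they were 409.1 and 89.9, over the myeloid markers 29.3 and 201.4, and over the stromal markers 80.5 and 0. What stromal DNA contributed to the WT IRF4 list was not tested.

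Most of the highest IRF4 peaks were present in both genotypes, and the lists parted with falling rank. Each list was ranked by the authors' peak score, and the top-ranked 50% were described, 8971 WT and 14773 IKDN peaks. A peak present in some cells only and a weak peak in all cells cannot be told apart in such lists. A peak was called shared if it overlapped any peak of the other list by at least 1 bp. Of the WT peaks 7122 were shared (79.4%, 78.5 to 80.2%) and 1849 were WT-only. Of the IKDN peaks 8203 were shared (55.5%, 54.7 to 56.3%) and 6570 were IKDN-only. Among the 100 highest peaks, 1 in the WT list and 2 in the IKDN list were genotype-only. Among the 1000 highest, 35 and 102 were. Shared WT peaks had a median score of 15.3 and WT-only peaks one of 10.9. In the IKDN list these medians were 18.4 and 13.2. The centres of overlapping peaks lay a median of 24 bp apart from the WT side and 26 bp from the IKDN side.

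**Figure D1:**
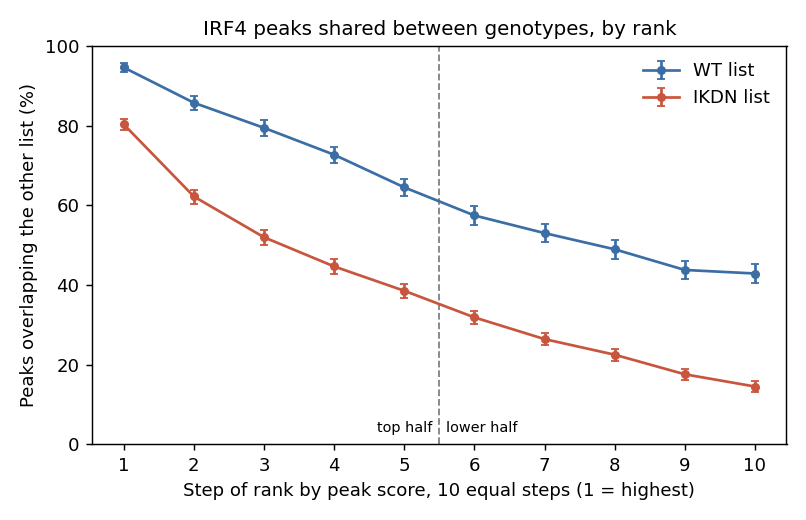
Share of IRF4 peaks (y axis, %) that overlap a peak of the other genotype's list, in 10 equal steps of rank by peak score within each list (x axis, 1 highest). Points are shares, bars exact 95% intervals, blue WT and red IKDN. The WT share fell from 94.6% in step 1 to 42.9% in step 10, and the IKDN share from 80.3% to 14.5%. The dashed line marks the end of the top-ranked 50%.

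The lists differ in what each can hold. WT peaks are 168 bp wide and IKDN peaks 230 bp. Scores within a list are whole multiples of a step, and if the scores are tags per 10 M, which is an inference, the WT library had 13.7 M tags and the IKDN library 17.4 M. On that reading the top-ranked WT peaks held at least 12 tags and the IKDN ones at least 17. The last peak inside and the first outside had the same score, 8.73 for WT and 9.76 for IKDN cells. Over the whole lists 11536 WT and 11535 IKDN peaks were shared, so there the shorter WT list has the higher shared share by its length. Where only the ranked peaks are cut to 8971 in both, the IKDN list searched for overlaps is still the longer one. Where only top-ranked peaks of the other list counted, 6048 peaks were shared from either side. There too the shorter WT list has the higher shared share by its length. The part of list length in the remaining settings was not tested. With both lists cut to their 5000 highest peaks 57.8% were shared from either side.

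Genotype-only IRF4 peaks lay away from gene starts more often than shared ones in both lists where 1 bp of overlap counted as shared, though not in the WT list under 2 stricter rules. Peaks more than 2500 bp from the nearest start were called distal and the rest promoter peaks. Distal peaks made up 68.6% of shared WT peaks (67.5 to 69.7%) and 73.7% of WT-only peaks (71.6 to 75.7%). In the IKDN list they made up 67.3% of shared peaks (66.3 to 68.3%) and 77.3% of IKDN-only peaks (76.3 to 78.3%). The distal share fell with rank, and within each of 5 equal steps of the top-ranked 50% it was higher in genotype-only than in shared peaks. In step 1 it was 94.8% of 97 WT-only and 84.6% of 1698 shared WT peaks, and 93.5% of 582 IKDN-only and 84.6% of 2373 shared IKDN peaks. In step 5 it was 69.2% and 51.1% in the WT list, and 66.5% and 48.3% in the IKDN list. For WT the order turned with a stricter meaning of shared. With an overlap of at least 50% of both peaks 64% of WT-only and 72.1% of shared WT peaks were distal, and with only the top-ranked 50% of the other list 67.8% and 70.5%. For IKDN the order stayed, at 72.3% against 71.2% and 72.6% against 70.5%. Where any peak within 1000 bp in the other list counted as shared, the order of the genotype-only classes turned, with 86% distal in WT-only and 82.2% in IKDN-only peaks.

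IRF4 peaks held by only 1 genotype carried H3K27ac of their own genotype more often than of the other. Among distal WT-only peaks 51% (48.3 to 53.7%) overlapped a WT H3K27ac peak and 27.5% (25.2 to 30%) an IKDN H3K27ac peak. Among distal IKDN-only peaks 65.3% (64 to 66.6%) overlapped an IKDN H3K27ac peak and 37.5% (36.2 to 38.9%) a WT one. H3K27ac in the same genotype alone was found at 25.1% of the distal WT-only and 30.2% of the distal IKDN-only peaks. The reverse, H3K27ac in the other genotype alone, was found at 1.62% and 2.44%. Shared distal peaks had H3K27ac of the same genotype at 60.9% in WT and 59.9% in IKDN cells. No H3K27ac in either genotype was found at 47.4% of the distal WT-only and 32.3% of the distal IKDN-only peaks. The distal WT-only peaks of highest rank carried the mark least. H3K27ac of WT cells was at 27.2% of the 92 in step 1, 40.6% in step 2 and 52.2% to 56.9% in steps 3 to 5, against 58.4% to 62.7% of shared distal WT peaks in the 5 steps. Distal IKDN-only peaks had H3K27ac of IKDN cells at 62.6% to 68.9% in the 5 steps. In both lists and all 5 alternatives that change which peaks are shared or ranked, distal genotype-only peaks had the mark of their own genotype more often than of the other, with 45.8% to 55.5% against 20.3% to 36.3% for WT and 56.1% to 66.3% against 33.6% to 41.4% for IKDN. Over all places, 61.6% of WT-only and 71.2% of IKDN-only peaks overlapped H3K27ac of their genotype. The H3K27ac lists held 33342 WT and 38528 IKDN peaks.

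**Figure D2:**
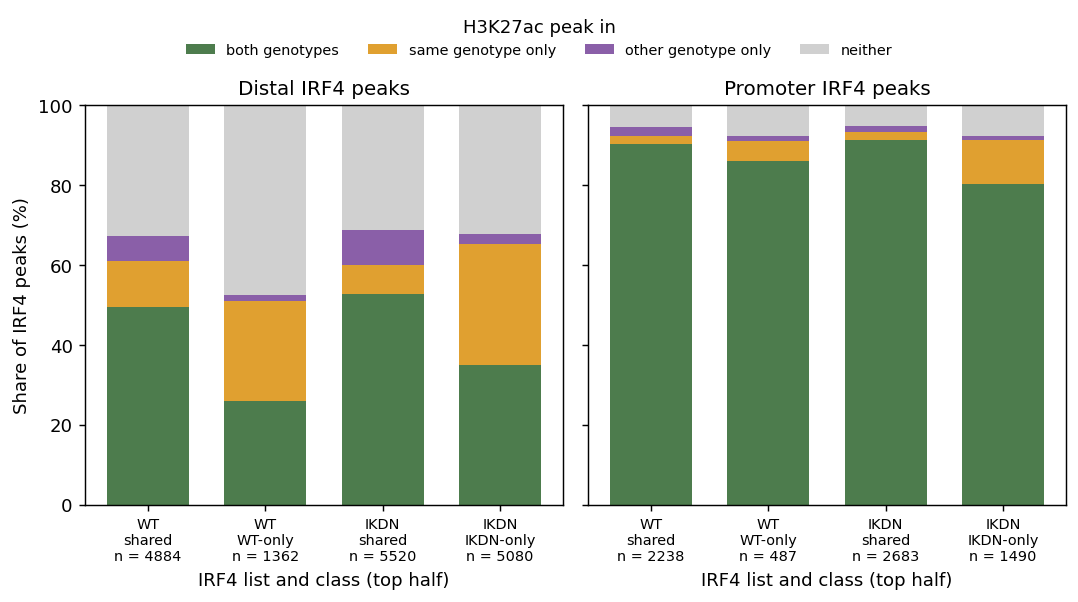
Stacked shares (y axis, %) of top-ranked IRF4 peaks that overlap H3K27ac in both genotypes (green), in the same genotype only (yellow), in the other genotype only (purple) or in neither (grey), for distal peaks (left) and promoter peaks (right), by list and class (x axis). Yellow is 25.1% of the distal WT-only and 30.2% of the distal IKDN-only bar and 11.4% and 7.26% of the shared bars. Promoter bars are mostly green.

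At promoters the classes were alike in the mark of their own genotype. H3K27ac was present at 92.4% of shared WT, 91.2% of WT-only, 93.4% of shared IKDN and 91.3% of IKDN-only promoter peaks. The mark of the other genotype was at 87.3% of the WT-only (84 to 90.1%) and 81.3% of the IKDN-only promoter peaks (79.3 to 83.3%). Peak centres annotated to long terminal repeats, long interspersed and short interspersed elements were 8.65%, 6.17% and 4.33% of WT-only peaks and 6.8%, 4.4% and 2.37% of IKDN-only peaks. In shared peaks these shares were 7.03%, 4.37% and 2.77% for WT and 6.6%, 4.25% and 2.3% for IKDN, near the IKDN-only values.

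IKDN-only distal IRF4 peaks overlapped other factors more often in IKDN than in WT lists, for every factor mapped in both genotypes. In IKDN lists, 59.5% overlapped PAX5, the B cell commitment factor, 50.2% TEAD1, the DNA-binding partner of YAP in the Hippo pathway, 49% ETS1, 46.8% the Mediator subunit MED1, 46.5% LHX2 and 40.3% LMO2, both stem cell regulators. E2A and EBF1, B lineage factors, were at 35.1% and 30.8%, and Aiolos, an Ikaros relative, at 6.75%. Shared distal IKDN peaks had much the same shares for PAX5 (59.2%), ETS1 (47.3%), MED1 (47.5%) and E2A (34.1%), and a lower one for EBF1 (23%). In the WT lists the IKDN-only sites overlapped TEAD1 at 10.3%, ETS1 at 12%, MED1 at 6.1% and PAX5 at 24.1%. E2A was there at 15.3%, EBF1 at 17.8% and Aiolos at 3.56%. The shared distal IKDN peaks also had lower shares in WT lists for TEAD1 (20.8%), MED1 (21.3%), ETS1 (34.8%) and PAX5 (51.6%). Their WT shares were higher for E2A (38%), EBF1 (23.5%) and Aiolos (10.3%, against 4.84% in the IKDN list). At the IKDN-only distal peaks H3K27me3 and H3K36me3, marks of repressed and of transcribed chromatin, had the higher share in WT cells. They were at 2.34% in IKDN and 5.2% in WT cells and at 3.86% and 4.9%. H3K4me1, a mark of enhancers, was at 78.4% of the IKDN-only distal peaks in IKDN cells and 54.1% in WT cells. Ikaros in WT cells was at 36.9% (35.5 to 38.2%) of them, against 68.3% of the shared distal IKDN peaks. TEAD1 in IKDN cells was at 50.2% (48.8 to 51.6%) of the IKDN-only and 43.6% (42.3 to 45%) of the shared distal peaks. LHX2 differed little between these classes, at 46.5% (45.1 to 47.9%) and 47.3% (46 to 48.6%).

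For the factors mapped in both genotypes, WT-only distal IRF4 peaks had lower shares in WT lists than IKDN-only ones in IKDN lists. Ikaros, mapped in WT cells only, went the other way, with 36.9% of the IKDN-only distal peaks. In WT lists, 46% overlapped Ikaros (43.3 to 48.7%), 38.8% PAX5, 31.8% E2A, 27.6% ETS1, 22.1% EBF1, 18.6% MED1 and 17.7% TEAD1. The shared distal WT peaks had Ikaros at 67.1%, PAX5 at 51.8% and E2A at 37%, while EBF1 at 22.3% was near the WT-only share. In IKDN lists the WT-only sites overlapped ETS1 at 18.9%, LHX2 at 19.2%, TEAD1 at 13.2% and LMO2 at 12%, and H3K4me1 at 35.1% against 61.7% in WT cells. MED1 was the exception to the order of the genotypes, with 19.8% in the IKDN list and 18.6% in the WT list. List lengths differ and set these shares in part: MED1 had 24201 peaks in IKDN and 12062 in WT cells, and TEAD1 47671 and 33450. The E2A, ETS1 and PAX5 shares use only chromosomes that are complete in the list (11 for E2A in WT, 19 for ETS1 in WT, 18 for PAX5 in IKDN cells).

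**Figure D3:**
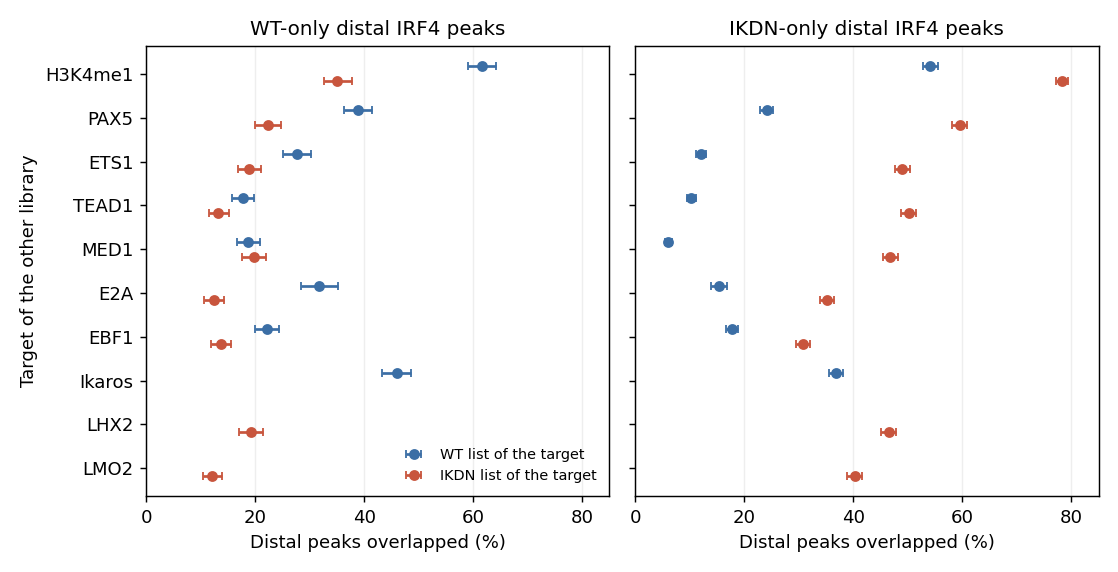
Share of WT-only (left) and IKDN-only (right) distal top-ranked IRF4 peaks (x axis, %) that overlap a peak of each of 10 other targets (y axis), in the WT list of that target (blue) and the IKDN list (red). Bars are exact 95% intervals. Ikaros has a WT list only, LHX2 and LMO2 an IKDN list only. On the right every target shown with both lists has the higher share in the IKDN list. On the left the WT share is higher for all of those shown but MED1.

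Shared IRF4 peaks were put in order by the worse of their 2 ranks, each as a share of its list. The first 6 in that order were near Gm20110, Scgb2b26, Rps14, C330018D20Rik, Cradd and Snx29, and all 6 carried H3K27ac in both genotypes. The peak nearest to Gm20110 (chr10:99461712-99461880, intergenic, 147375 bp upstream) was the first of the WT list, with a score of 757.2, and had a score of 1085.4 in IKDN cells. Scgb2b26, a secretoglobin gene, had scores of 733.2 and 830.4 at an intergenic peak (chr7:33900145-33900313). At Cradd, an adaptor of cell death signalling, the scores were 533.9 and 622.5 (chr10:95291256-95291424, intron), and at Snx29, a sorting nexin, 563 and 546.7 (chr16:11385885-11386053, intron). Ikaros of WT cells was present at all 6.

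None of the 6 highest WT-only peaks carried H3K27ac in either genotype. The first, ranked 52 with a score of 259.7, was intergenic and nearest to Arid1b (chr17:4626362-4626530, 368628 bp upstream), which codes for a chromatin remodelling subunit. It overlapped 6 of the 8 other WT factor lists complete on that chromosome. Next came Limd1, a LIM domain protein that binds Hippo kinases, with a score of 159.3 (chr9:123461943-123462111), Zfp949, a zinc finger gene, with 152.8, and Igf2bp3, an RNA-binding protein, with 147.7. 4933427E13Rik followed with 141.8 and Hic2, a transcriptional repressor, with 122.2. 

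Of the 6 highest IKDN-only peaks 4 carried H3K27ac in IKDN cells alone. These lay near App, the amyloid precursor gene, with a score of 295.2 (chr16:85148580-85148810, intron), Sec61b, a subunit of the protein translocon, with 267, Nucb2, a calcium-binding protein, with 249.8, and Scd4, a fatty acid desaturase, with 232.6. The peak near Pdzrn3, a PDZ and RING domain protein, had a score of 306.1 and H3K27ac in both genotypes. The highest, near Maf, a basic leucine zipper factor, had a score of 330.2 and no H3K27ac (chr8:115778497-115778727, 71718 bp upstream). TEAD1 and PAX5 of IKDN cells were present at all 6 and LHX2 at 5.

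By nearest gene, IKDN-only IRF4 peaks outnumbered WT-only peaks at most gene lists, as they did over all genes (6570 against 1849). They did so most of all at integrins and focal adhesion genes, while B lineage genes had as many of either kind. A gene was called for a genotype when it had at least 2 more genotype-only top-ranked peaks of that genotype than of the other. This is a threshold and not a test. Of 23815 genes in the lists of the series, 1151 (4.83%) were called for IKDN and 129 (0.542%) for WT. At least 1 shared peak was assigned to 26.4% of genes, at least 1 IKDN-only peak to 18.0%, at least 1 WT-only peak to 6.22% and both kinds of genotype-only peak to 2.35%. Genes called for IKDN were longer, with a median of 42.4 kb against 15.9 kb over all genes, and 25.2 kb for genes called for WT. The part of gene length in the counts below was not tested. With the same number of peaks from each list 488 genes (2.05%) were called for IKDN and 158 (0.663%) for WT. With equal numbers of peaks 23.3% of integrin and focal adhesion genes were called for IKDN, 16.7% of the IL-7 receptor list, 16% of the Hippo list, 15.4% of stem and progenitor factors, 12% of cell cycle genes, 10% of the pre-B cell receptor list and 7.41% of the growth factor list.

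**Figure D4:**
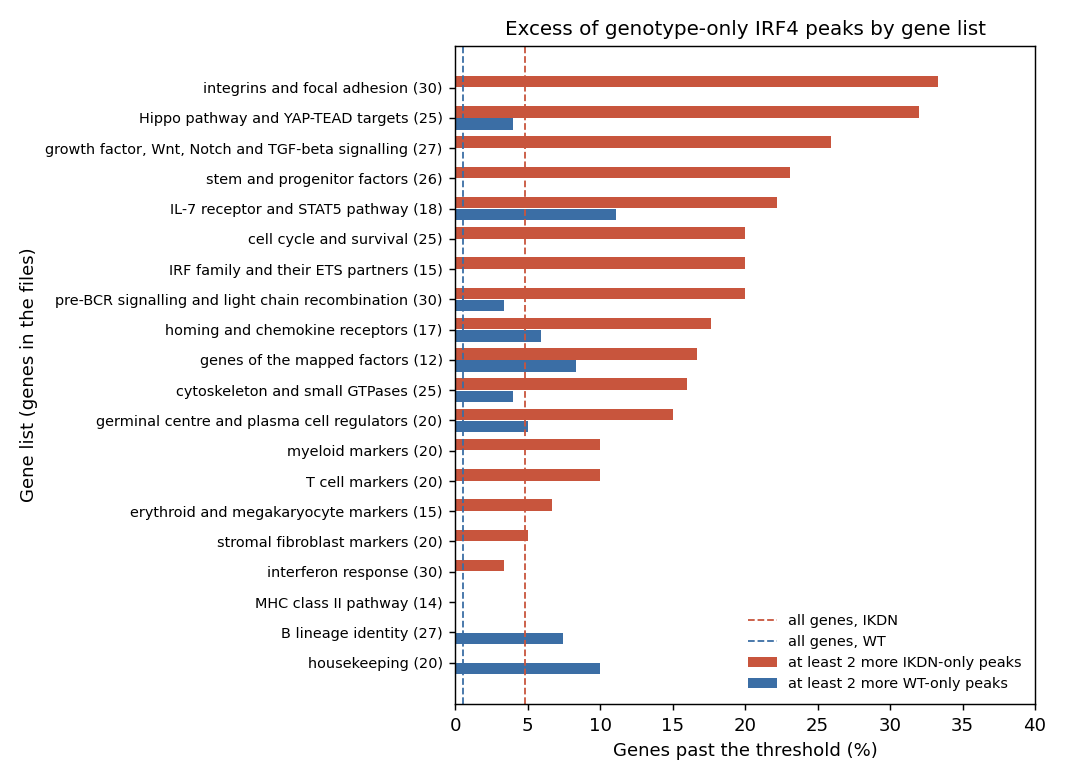
Share of the genes of each list (y axis, number of genes in parentheses) with at least 2 more IKDN-only (red) or WT-only (blue) top-ranked IRF4 peaks (x axis, %). Dashed lines mark all genes, 4.83% and 0.542%. Integrin and focal adhesion genes stand at 33.3% for IKDN and 0 for WT, and B lineage genes at 0 and 7.41%.

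Integrins and their focal adhesion partners, which hold cells to matrix and stroma, were called for IKDN at 10 of 30 genes and for WT at none, against the background of 4.83%. They had 47 IKDN-only and 2 WT-only peaks, with a median excess of 1 against 0 over all genes. Of the 47, 40 carried H3K27ac in IKDN cells and 22 in WT cells. Over all IKDN-only peaks these shares were 71.2% and 47.5%, so the WT count was near the share over all. Tns3, a tensin that couples integrin tails to the actin skeleton, had 9 IKDN-only peaks, all with H3K27ac in IKDN cells and 7 with it in WT cells, and no WT-only peak. Itga9 had 5 IKDN-only peaks and none WT-only, with 13 peaks in the whole IKDN list and 2 in the WT list. Itga5, the fibronectin receptor chain, had 4 IKDN-only peaks, with scores of 24.7, 14.4, 13.8 and 11.5 from 10340 bp upstream of its start to 5202 bp downstream, and no peak in the WT list. The median length of the list's genes was 74.6 kb. With the same number of peaks from each list 7 of the 30 were called for IKDN.

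Among 25 genes of the Hippo pathway and YAP-TEAD targets, 8 were called for IKDN and 1 for WT, against 4.83% and 0.542% of all genes. They had 38 IKDN-only and 4 WT-only peaks and a median excess of 1. The IKDN-only peaks had H3K27ac in IKDN cells at 34 and in WT cells at 16 of the 38. Over all IKDN-only peaks these shares were 71.2% and 47.5%. Crim1, a transmembrane protein that binds growth factors, was the nearest gene to 8 IKDN-only peaks, 5 with H3K27ac in IKDN cells and 1 in WT cells. All 8 were intergenic and far from the gene, 557647 to 1139807 bp upstream of its start. Ptpn14, a phosphatase that restrains YAP, had 6 over its promoter and introns, with scores of 43.6, 40.8, 24.7, 17.8, 16.7 and 13.8 and no WT peak. All 6 had H3K27ac in IKDN cells, and 1, at the promoter, in WT cells as well. Tead1 itself had 6 IKDN-only peaks with scores of 11.5 to 44.8, 5 of which had H3K27ac in WT cells too. Stk3, the Hippo kinase MST2, went the other way with 2 WT-only peaks and none IKDN-only. Cyr61, named after its values were seen and not called, had 1 WT-only peak with a score of 101.1. It had no H3K27ac in either genotype, and the IKDN list had no peak at Cyr61. With equal numbers of peaks 4 genes were called for IKDN and 1 for WT.

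Growth factor, Wnt, Notch and TGF-beta signalling genes were called for IKDN at 7 of 27 and for WT at none. The shares over all genes were 4.83% and 0.542%. Igf1r, a growth factor receptor, had 4 IKDN-only peaks, all with H3K27ac in IKDN cells, and none in the WT list. Smad3, which carries TGF-beta signals to the nucleus, had 3, with 1 shared peak from the WT side and 2 from the IKDN side. Tgfbr2, the receptor, had 2 beside 6 and 7 shared peaks. With equal numbers of peaks 2 of the 27 were called for IKDN, or 7.41% against 2.05% of all genes. The genes of the list had a median length of 81.7 kb.

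Genes that act in pre-B cell receptor signalling and light chain recombination were called for IKDN at 6 of 30 and for WT at 1. Over all genes the shares were 4.83% and 0.542%. Vav3, an exchange factor for Rac, and Plcg2, the phospholipase below the receptor, had 5 IKDN-only peaks each and 2 shared peaks each. Zap70, a kinase related to Syk, had 4, all with H3K27ac in both genotypes. Blnk, the adaptor of the pre-B cell receptor, named after its values were seen, had 3 shared peaks and no genotype-only one, with best scores of 50.9 in WT and 62.6 in IKDN cells. Rasgrp1, an activator of Ras, had 2 WT-only and no IKDN-only peaks. In the IL-7 receptor and STAT5 pathway 4 of 18 genes were called for IKDN and 2 for WT. Bcl2, the survival gene, had 3 IKDN-only peaks beside 2 shared peaks, with a best shared score of 232 in WT and 298.6 in IKDN cells. Socs3, a feedback inhibitor of cytokine receptors, had 3 and Pim1, a survival kinase, 3 against 1. Socs2, of the same inhibitor family, and Crlf2, the receptor chain for TSLP, each had 2 WT-only peaks and none IKDN-only.

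Homing and chemokine receptor genes were called for IKDN at 3 of 17 and for WT at 1, against 4.83% and 0.542% of all genes. With equal numbers of peaks they were called at none and 1, against 2.05% and 0.663%. Cxcr4, the receptor for the stromal chemokine CXCL12, had 2 peaks of each kind beside 4 shared ones from the WT side and 5 from the IKDN side, and its best scores were 196.4 and 214.8. It was named after its values were seen. S1pr1, the receptor that guides lymphocytes out of tissues, had 3 IKDN-only peaks beside 4 shared ones from the WT side and 5 from the IKDN side. Ccr7 and S1pr3 had 3 against 1 each. Ccr9, the receptor for a thymic and gut chemokine, had 2 peaks, both WT-only, at 4023 bp upstream and 17647 bp downstream of its start (scores 13.8 and 13.1), the first with H3K27ac in WT cells alone. Among germinal centre and plasma cell regulators 3 of 20 were called for IKDN and 1 for WT. Prdm1, the plasma cell regulator Blimp-1, had 5 IKDN-only peaks with scores of 10.3 to 21.8. Its highest peak was shared, at chr10:44638791-44638959, 180188 bp upstream, with a score of 152.8 and rank 197 in the WT list and a score of 36.2 and rank 2684 in the IKDN list. That site had H3K27ac in WT cells and not in IKDN cells. Bcl6, the germinal centre repressor, had 2 IKDN-only peaks, and its best shared peaks scored 133.1 in WT and 209 in IKDN cells. Mef2c, a factor of B cell progenitors, had 3 WT-only peaks against 1, beside 7 shared peaks.

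Among stem and progenitor factors 6 of 26 were called for IKDN and none for WT, against 4.83% and 0.542% of all genes. Etv6 and Runx1, regulators of blood stem cells, had 4 IKDN-only peaks each, all with H3K27ac in IKDN cells, and 3 and 5 shared ones. Fli1, an ETS factor, had 4 against 1. Cell cycle and survival genes were called at 5 of 25, among them Cdk6 and Ccnd1, the kinase and cyclin of the first growth phase, with 4 IKDN-only peaks each and none WT-only. Cytoskeleton and small GTPase genes were called for IKDN at 4 of 25 and for WT at 1, Actb, the housekeeping actin, with 2 WT-only peaks at its promoter. Fmnl2, a formin, and Arhgef12 had 2 IKDN-only peaks each and no other top-ranked peak.

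B lineage identity genes were called for IKDN at 0 of 27 and for WT at 2, against 4.83% and 0.542% of all genes. They had 19 IKDN-only and 19 WT-only peaks. At least 1 shared peak was assigned to 23 of the 27, against 26.4% of all genes. Ebf1, the factor that specifies the B lineage, had 4 WT-only peaks and 1 IKDN-only peak beside 2 shared ones. The WT-only peaks had scores of 9.46 to 16 and lay from 38488 bp upstream to its promoter. Blk, a tyrosine kinase of the Src family, had 2 WT-only peaks, with scores of 22.5 at 1436 bp upstream and 13.1 in an intron, both with H3K27ac in WT cells alone. The IKDN list had no peak at Blk. With equal numbers of peaks 3 of the 27 were called for WT and none for IKDN, and over the whole lists 7 were called for IKDN and 3 for WT.

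Of the 12 genes of the mapped factors 2, Ets1 and Tead1, were called for IKDN and 1, Ebf1, for WT. Over all genes 4.83% and 0.542% were called. The 12 genes had 16 IKDN-only and 5 WT-only peaks, near the balance over all genes (6570 and 1849). Irf4 had a shared peak at its own promoter, with scores of 10.2 for WT and 18.4 for IKDN cells, and no genotype-only peak. Irf8, its closest relative, had 1 of each kind. Spi1, which codes for PU.1, had no top-ranked peak. Spib had 1 WT-only peak and a shared one with scores of 38.6 and 23.5. Ikzf1, the Ikaros gene, had shared peaks 36519, 27205 and 18448 bp upstream, the highest with scores of 37.1 in WT and 90.7 in IKDN cells, and a WT-only peak at its promoter with a score of 10.9. Pax5 had 1 IKDN-only peak, with a score of 14.9, and no peak in the WT list. Ets1 had 6 IKDN-only peaks, all with H3K27ac in IKDN and 5 also in WT cells. Of the IRF family and their ETS partners 3 of 15 were called for IKDN: Irf1, Irf2 and Batf, an AP-1 partner of IRF4, with 2 IKDN-only peaks each. None of the 15 was called with equal numbers of peaks.

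Interferon response genes were called for IKDN at 1 of 30, Mx2, and MHC class II genes at 0 of 14, at or below the background of 4.83%. Markers of other cell types were called at 2 of 20 for T cells (Cd28 and Zap70, 4 IKDN-only peaks each), 2 of 20 for myeloid cells (Cebpa, 3, and Csf1r, 2), 1 of 20 for stromal fibroblasts (Cxcl12, 6) and 1 of 15 for erythroid and megakaryocyte cells (Vwf, 3), none of them for WT. The stromal and erythroid shares, 5% and 6.67%, were near the background. With equal numbers of peaks the T cell markers were called at 0 of 20, against 2.05% of all genes. The myeloid, stromal and erythroid counts stayed at 2, 1 and 1. Cebpa had its 3 IKDN-only peaks at the promoter and 20286 and 20855 bp upstream, with scores of 16.1, 21.8 and 13.2, all with H3K27ac in IKDN cells alone. Of 20 housekeeping genes 2 were called for WT, Ywhaz and Actb, and none for IKDN, against 0.542% and 4.83% of all genes.

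Over all genes Trio, an exchange factor for small GTPases, had the largest excess of IKDN-only IRF4 peaks. It had 13 of them and no top-ranked WT peak, spread from 80343 bp upstream of its start to 149330 bp downstream, with scores of 11.5 to 92.5. All 13 had H3K27ac in IKDN cells and 2 had it in WT cells. Cd180, a Toll-like receptor relative on B cells, had 11 IKDN-only peaks beside shared ones, with scores of 9.76 to 29.9, 10 with H3K27ac in IKDN and 6 in WT cells. Pard3, a polarity protein, had 10, of which 5 had H3K27ac in IKDN and 1 in WT cells. Kcnma1, a potassium channel, had 10, and Irs2, an adaptor of insulin and cytokine receptors, 10 with H3K27ac at 9 in IKDN and 3 in WT cells. None of the 5 had a WT-only peak.

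The largest excess of WT-only peaks lay in the immunoglobulin loci. Rprl1 (37 WT-only peaks, none IKDN-only), Rpia (11 against 1) and 4930515G16Rik (10 against 2) are the genes named nearest to peaks of the immunoglobulin kappa locus, and Mir6388 (16 against 0) to peaks among the heavy chain V segments. 4930474G06Rik, outside these loci, had 7 against 0. Of the 37 WT-only peaks named to Rprl1, 29 had H3K27ac in WT cells and none had it in IKDN cells. At Mir6388 these numbers were 16 and 6 of 16.

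Across the kappa locus (Igk, chr6:67555636-70726754 in GRCm38.p6) the WT list held 133 IRF4 peaks, 0.741% of the list, and the longer IKDN list 48, or 0.162%. In the top-ranked 50% there were 58 WT-only and 3 IKDN-only peaks, and 36 shared from the WT side. Of 162 V kappa segments, 61 had a WT IRF4 peak within 500 bp and 17 an IKDN one. H3K27ac lay within 500 bp of 105 V kappa segments in WT and 10 in IKDN cells, and covered 361 kb and 39.8 kb of the locus. H3K27me3, the mark of Polycomb repression, went the other way, with 51 peaks over 38.9 kb in WT and 190 peaks over 299 kb in IKDN cells. Other factors had fewer peaks there in IKDN cells as well: PAX5 had 254 peaks in WT and 143 in IKDN cells, EBF1 130 and 80, ETS1 67 and 23, and MED1 80 and 17.

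The kappa 3′ enhancer region held a high peak in both lists, as did some places over the V segments. The IRF4 peak 8.96 kb past Igkc had a score of 273.5 and rank 48 in the WT list (chr6:70735634-70735802) and a score of 299.2 and rank 111 in the IKDN list, with H3K27ac in both genotypes. A second shared peak, just before the end of Igkc, had scores of 9.46 and 11.5. Over the lambda locus (Igl, chr16:19026858-19260844) all top-ranked peaks were shared, 4 in each list. The 3 highest had scores of 201.5, 163.7 and 154.2 in WT and 238.9, 210.2 and 145.3 in IKDN cells, with H3K27ac in both.

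**Figure D5:**
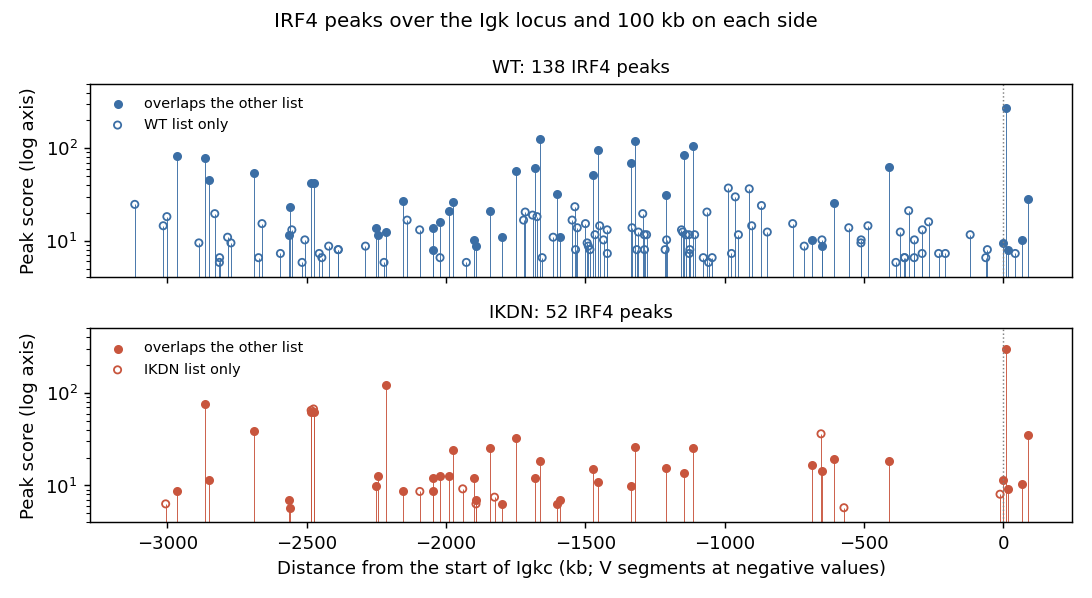
IRF4 peaks over the Igk locus and 100 kb on each side, by distance from the start of Igkc (x axis, kb) and peak score (y axis, log scale), in the WT list (top, 138 peaks) and the IKDN list (bottom, 52 peaks). Filled circles overlap a peak of the other list and open circles do not. The peak just past Igkc is high in both lists, and most open circles are WT peaks over the V segments.

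The heavy chain locus (Igh, chr12:113258768-116009954) held 95 WT and 40 IKDN IRF4 peaks, with 21 WT-only and 3 IKDN-only peaks in the top-ranked 50%. A WT IRF4 peak lay within 500 bp of 36 of 183 V heavy segments and an IKDN peak of 11, beside H3K27ac at 78 and 30. At the T cell receptor alpha locus (Tcra, chr14:52427967-54224198) there were 43 WT and 20 IKDN peaks, while the beta locus (Tcrb) held 11 and 15. Without these 5 loci 122 genes were called for WT in place of 129, and the H3K27ac share of WT-only peaks was 60.6%.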

How the data were processed

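The study mapped transcription factors and chromatin marks by ChIP-seq in stromal adherent mouse pre-B cells, and 2 of its libraries, 1 WT and 1 IKDN, hold IRF4. The deposited files are HOMER peak lists, per the file headers, with a peak score, the nearest gene and the distance to its start. Peak strength is the score the authors deposited, whose scale no header states. Tools named in the submitters' processing notes are HOMER, BWA, STAR and bcl2fastq 1.8.3, and the builds are mm10 and mm9, with no settings. Implied gene starts fitted GRCm38.p6 (mm10) within 1000 bp for 96.6% of WT and 96.7% of IKDN IRF4 peaks. Whether replicates were pooled is not given in the sources used here.

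Peaks on chromosomes 1 to 19 and X were ranked by score, ties in list order, and the top 50% of each list kept. Overlap meant at least 1 bp, for the other IRF4 list (used whole) and for other targets. Distal meant over 2500 bp from the start the file gives. Interval code was tested on simulated peaks. Shares carry exact Clopper-Pearson intervals, and depth is known only by inference from score steps. No test was run. Named genes are the nearest to the 6 top shared, WT-only and IKDN-only peaks, the 5 with the largest excess each way, up to 3 called genes each way in each of 20 lists, and the factor genes. Exceptions are marked. The members and lists were chosen with earlier results of these data known. Alternatives changed the overlap, the number of peaks, the distal limit, the mark, the chromosomes and the call threshold. The removal of the antigen receptor loci was added after seeing the data. No genome was used here, so peak sequences come from RefSeq promoters, matched by position. Python 3.11.15 with pandas 2.3.3, numpy 2.4.6, scipy 1.17.1 and matplotlib 3.10.9 was used.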

Additional observations from a re-analysis of the deposited data

Results flagged for a closer look

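IRF4 peaks outside chromosomes 1 to 19 and X were left out of every comparison. The IKDN list held 43 of them, 15 on Y and 28 on unplaced scaffolds, and the WT list 31, 8 on Y and 23 on scaffolds. In the IKDN list they included the first peak of the whole list, with a score of 1705, and 5 of the 10 highest. In the WT list the best had a score of 192.8 and rank 119. Another 4 of the 10 highest IKDN peaks lay between 85 and 86 Mb of chromosome 1, near Sp110 and A530032D15Rik, with a best score of 1689.5 against 194.2 in the WT list. In that stretch the IKDN list held 15 IRF4 peaks and the WT list 19.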

How the results depend on the processing

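No paired analysis was possible because each genotype had 1 IRF4 library and nothing was tested. Of 58 alternative values 22 stayed within the main value's interval or 1.5 times its count and 36 moved. The shared share was higher for WT in the main setting and all 7 alternatives, and the WT list is the shorter one. Over the whole lists, and with only top-ranked peaks of the other list, that order follows from list length. With both lists cut to their 5000 highest peaks the shared share was 57.8% from either side. The share with the mark was higher in IKDN-only than WT-only peaks in all 9 alternatives, among them H3K4me1 in place of H3K27ac. The distal share kept its order in 8 of 9. In each pair below WT comes first. With 50% overlap of both peaks the shared shares were 69.8% and 47.6%, distal shares 64% and 72.3%, H3K27ac shares 69.2% and 73.8%. With any peak within 1000 bp they were 84.6% and 60.5%, 86% and 82.2%, 50.7% and 68.2%. With only the top 50% of the other list they were 67.4% and 40.9%, 67.8% and 72.6%, 65.1% and 72.3%. With all peaks they were 64.3% and 39%, and 65.3% and 70.1%, with H3K27ac at 66.3% of IKDN-only peaks, and 404 and 3109 genes were called. With equal numbers of top-ranked peaks the IKDN values were 64.8%, 86.7% and 67.4%, with 488 genes. A distal limit of 1000 bp gave 79.2% and 82%, and the files' annotation 84.4% and 86%. With H3K4me1 for H3K27ac the WT-only share was 55.5%. A threshold of 3 peaks called 45 and 463 genes. The cause of these changes was not tested. Depth limits the lower ranks: at the inferred scale the weakest WT peak held 7 tags and the weakest IKDN peak 9.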
